A study of Mus musculus with 15 samples.

Results

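The collagens other than type IV were the genes of the deposited count table with a symbol made of Col, a collagen number, the letter a and a chain number, leaving out the type IV chains. They were 38 of the 55416 genes in the table: 11 fibrillar chains, 9 FACIT chains (fibril-associated collagens with interrupted triple helices), 6 beaded-filament chains, 3 network-forming chains, 4 transmembrane chains, 2 multiplexin chains, 1 anchoring-fibril chain and 2 others. The 6 type IV chains were used only for comparison.

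Gene expression was profiled by RNA sequencing in 15 samples of SVI, a conditionally immortalised line of mouse podocytes, the epithelial cells on the outer face of the glomerular capillaries of the kidney. All samples carried this 1 line, and the cells had been differentiated and plated on flexible silicone membranes. Experiment 1 had 3 unstretched and 6 low-stretch samples, the latter with a labelled membrane deflection of 5 to 6 mm, and experiment 2 had 3 unstretched and 3 high-stretch samples with a labelled deflection of 7 to 8 mm. The design text gives the single values 6 mm and 8 mm for the largest deflection, and a model of raised pressure in the glomerulus was the stated aim. Stretched samples were set against unstretched ones from the same experiment, because amplitude and experiment cannot be told apart. Nothing in the labels states that the samples of a group were separate cultures, so the p-values measure only the spread between these samples, which may be technical.

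Collagens are extracellular proteins whose α chains wind into a rope-like helix inside the cell, after enzymes have hydroxylated their prolines and lysines. Fibrillar collagens are trimmed outside the cell and pack into crosslinked fibrils, FACITs coat these fibrils, and the other classes build filaments, nets, anchors or membrane-bound ectodomains. In the glomerulus, podocytes share a basement membrane with the endothelium whose main collagen is type IV; collagen XVIII is a heparan sulphate proteoglycan of the same kind of membrane, and fibrillar collagens are best known there from scarred glomeruli.

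Total gene counts ranged from 172.2 to 396.7 M (megacounts) per sample. In a principal component analysis of 12962 genes, the first component (83.9% of the variance) separated the experiments, with scores from 30.1 to 58.1 in experiment 1 and from -102.7 to -21.5 in experiment 2. Unstretched replicate 3 of experiment 2 stood apart from its group, with a score of -21.5 against -76.9 and -102.7. In CPM, counts scaled to an equal library size, podocyte markers were present with a summed level of 1531 to 3264, but the markers Tcf21 and Ptpro stayed under 0.1 CPM in every group. The endothelial markers Pecam1, Cdh5, Kdr, Emcn and Tek, the leukocyte markers Ptprc and Adgre1, the tubule markers Umod, Slc12a3 and Aqp2 and the fibroblast markers Pdgfra, Thy1 and Lum were likewise under 0.1 CPM. Other markers of these lists were present: the 4 leukocyte markers summed to 23.5 to 26.2 CPM in unstretched and 6.72 to 13.1 CPM in low-stretch samples, and to 23.8 to 26.1 CPM in unstretched and 5.90 to 9.87 CPM in high-stretch samples, and Csf1r fell under both amplitudes. Of 3 leukocyte markers tested under low stretch, 1 had a positive log2 difference, of 0.91. Under high stretch 1 of 2 was positive, at 0.86, with all stretched samples above the unstretched ones. The 5 tubule markers summed to 926.0 to 1089 CPM in unstretched and 474.1 to 757.2 CPM in low-stretch samples, with a fall of Lrp2, and to 317.1 to 667.3 CPM in unstretched and 249.1 to 424.7 CPM in high-stretch samples. The other tubule marker tested under low stretch had a log2 difference of 0.69, with all stretched samples above the unstretched ones. Under high stretch the 2 tested were at -0.39 and 0.24. The part of all these markers in the collagen results was not tested. Codes in the sample descriptions form 6 runs of neighbouring positions, each with 1 unstretched sample and the stretched samples next to it. What the codes stand for is not stated, and the runs served as a block in an alternative fit. In that fit 1 leukocyte marker rose under high stretch and 1 tubule marker under low stretch, where 8.35% and 28.2% of all genes were called.

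Levels of different collagens were compared in TPM, transcript abundance per length in an equally sized library, summed over each gene's protein-coding transcripts. Of the 38 genes, 8 reached 10 TPM in at least 1 group, 2 more reached 1 TPM, 8 peaked between 0.1 and 1 TPM, and 20 stayed under 0.1 TPM in every group. Col18a1, the chain of collagen XVIII, was the most abundant, with 540.4 ± 69.5 TPM (SD, n = 3) in unstretched cells of experiment 1 and 771.1 ± 40.9 TPM (SD, n = 3) in those of experiment 2. It alone made up 50.2% of the summed TPM of the 38 genes in the first of these groups and 70.6% in the second. Col8a1, a chain of the short-chain collagen VIII known from Descemet's membrane and vessel walls, followed with 200.4 ± 29.3 TPM (SD, n = 3) in experiment 1, and then Col5a2, a chain of the fibril-nucleating collagen V, with 151.2 ± 9.02 TPM (SD, n = 3).

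In the unstretched cells of experiment 1 the sample ranges of these leading chains did not overlap: 498.8 to 620.6 TPM for Col18a1, 166.6 to 218.8 TPM for Col8a1 and 141.9 to 160.0 TPM for Col5a2. The next chains, Col6a1 (24.9 to 57.1 TPM), Col12a1 (32.7 to 47.4 TPM), Col5a1 (35.9 to 44.4 TPM), Col16a1 (26.9 to 34.1 TPM) and Col6a2 (19.1 to 28.6 TPM), overlapped with their neighbours, so their order was not resolved. Col20a1 and Col11a1 were the only others above 1 TPM, at group means of up to 3.97 and 1.88 TPM. The chains of collagen I and III, the usual collagens of connective tissue, were far lower in every group, with 0.108 to 0.203 TPM for Col1a1 and 0.0207 to 0.118 TPM for Col3a1.

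**Figure D1:**
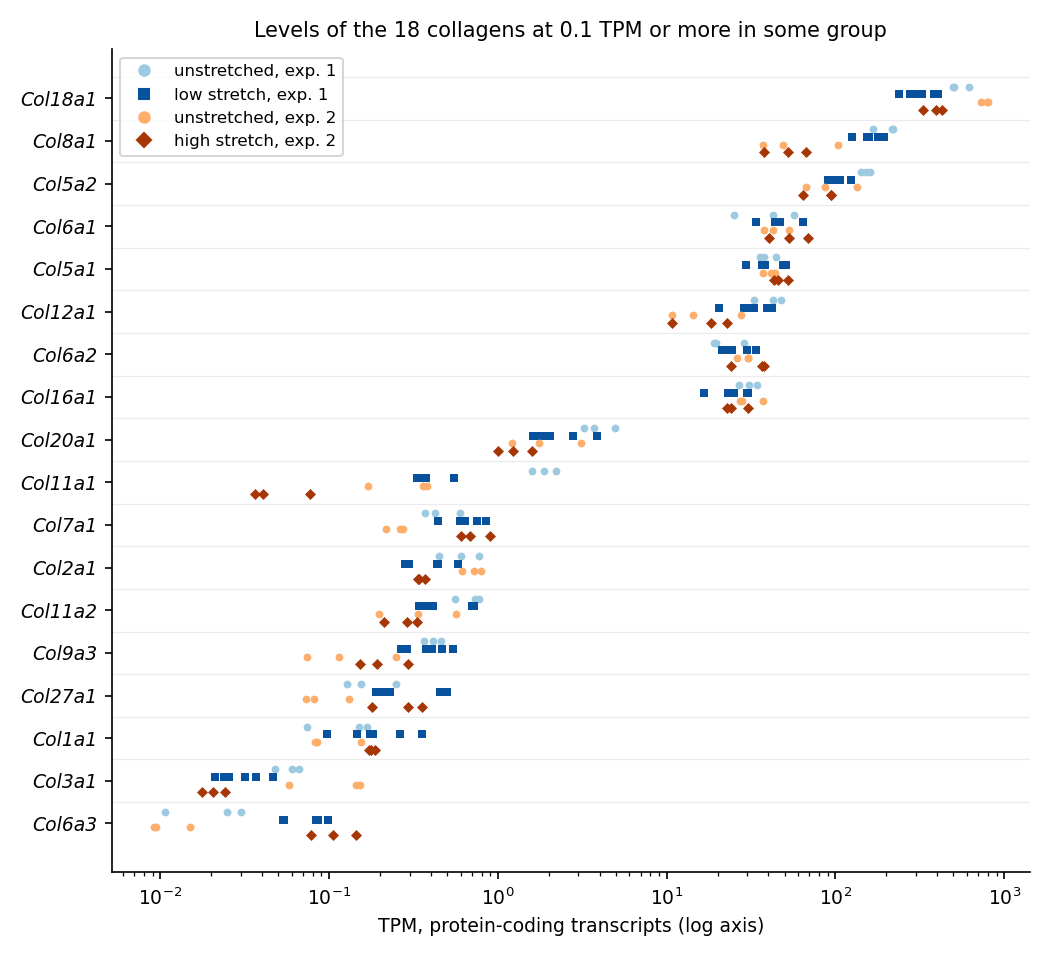
Level of the 18 collagens with at least 0.1 TPM in some group, as summed TPM of protein-coding transcripts on a logarithmic axis. Each point is 1 sample (n = 3, 6, 3 and 3). Col18a1, Col8a1 and Col5a2 lead in unstretched cells of experiment 1, and Col8a1 sits lower in both groups of experiment 2.

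The summed level of the 38 genes was lower in both stretched groups. In experiment 1 it was 1076 ± 74.2 TPM (SD, n = 3) in unstretched cells and 759.9 ± 105.2 TPM (SD, n = 6) after low stretch, and in experiment 2 it was 1097 ± 119.4 TPM (SD, n = 3) and 700.8 ± 73.1 TPM (SD, n = 3). The sample ranges did not overlap in either experiment, at 637.9 to 883.5 TPM against 1001 to 1150 TPM, and 648.7 to 784.4 TPM against 980.2 to 1219 TPM. Most of the gap came from Col18a1, which averaged 321.9 TPM under low stretch and 383.9 TPM under high stretch.

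Low stretch was compared with unstretched cells by edgeR's quasi-likelihood test over all genes, with Benjamini-Hochberg adjusted p-values called under 0.05. Of the 38 collagens, 27 had enough counts to be tested; 1 rose and 5 fell. Col6a3 rose, and Col11a1, Col19a1, Col23a1, Col18a1 and Col5a2 fell. These 6 calls compare with 5.45% of the 21672 genes tested, the rise with 1.85% called higher and the 5 falls with 3.6% called lower. The log2 differences of the 27 chains had a median of -0.21, against 0.01 over all genes tested, with 12 above zero and 15 below. In 7 chains the groups did not overlap, 1 with the stretched samples above and 6 with them below, against 15.3% of all genes (7.81% above and 7.47% below). The 11 collagens without enough counts were Col5a3, Col9a1, Col9a2, Col22a1, Col6a4, Col6a5, Col6a6, Col13a1, Col25a1, Col26a1 and Col28a1. The number of calls rested on the 3 unstretched samples: it was 1 without replicate 1, 2 without replicate 2, 1 without replicate 3, and 3 without low-stretch replicate 4. Over all genes, the 9 fits that each left out 1 sample gave 220 to 1630 calls, against 1181 with all samples. With the code runs as a block, 12 chains were called, 5 higher and 7 lower, against 28.2% of all genes.

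High stretch was compared in the same way, and 24 of the 38 collagens were tested; Col24a1, Col14a1 and Col10a1 also lacked enough counts here. Col6a3, Col7a1 and Col27a1 rose, and Col11a1 and Col19a1 fell. These 5 calls compare with 3.47% of the 18524 genes tested, the 3 rises with 1.31% called higher and the 2 falls with 2.16% called lower. The median log2 difference was -0.08, against -0.02 over all genes tested, with 11 chains above zero and 13 below. The groups did not overlap in 12 chains, 5 above and 7 below, against 20.6% of all genes (9.97% above and 10.7% below). Without high-stretch replicate 3 no collagen was called; 1 was called without high-stretch replicate 1 or unstretched replicate 1, 3 without high-stretch replicate 2, and 9 without unstretched replicate 3, the sample that stood apart. Calls over all genes also moved in the 6 fits that each left out 1 sample, from 14 to 1421, against 643 with all samples. With the code runs as a block, which in this experiment are the same as a block on replicate number, 9 chains were called, 4 higher and 5 lower, against 8.35% of all genes. The 4 gained were Col3a1, Col18a1, Col1a1 and Col2a1.

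**Figure D2:**
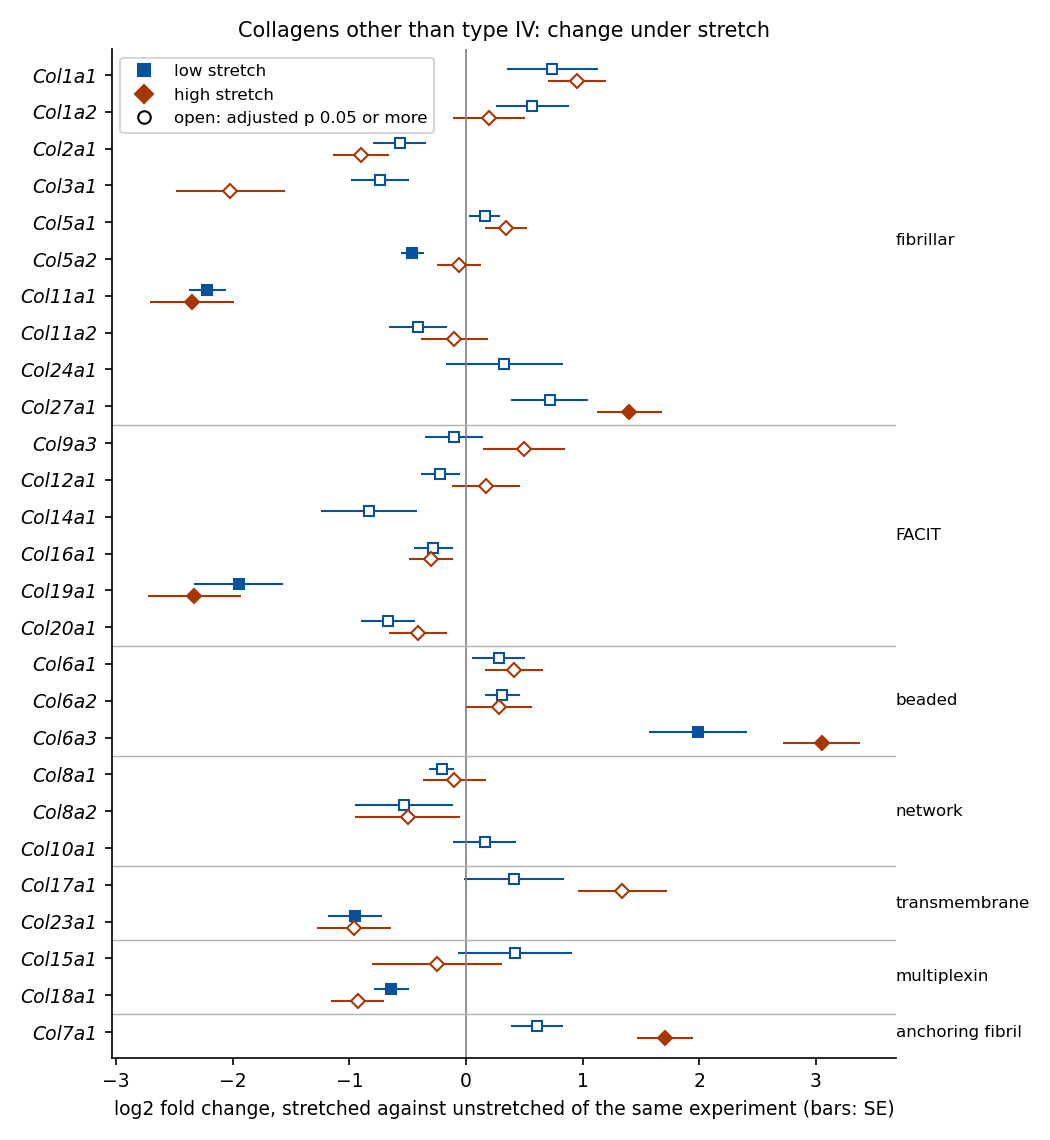
Log2 difference between stretched and unstretched samples for the 27 collagens tested, by class, with bars for the standard error; filled symbols have an adjusted p under 0.05. Col6a3 lies furthest to the right and Col11a1 and Col19a1 furthest to the left in both comparisons.

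Among the fibrillar chains, Col11a1 fell under both amplitudes. Collagen XI, of which it is a chain, nucleates the thin fibrils of cartilage together with collagen II. In CPM, set on 1 scale for all samples, Col11a1 had 6.76, 8.01 and 9.48 in the unstretched samples of experiment 1, and under low stretch the lowest, median and highest values were 1.49, 1.62 and 2.38. In experiment 2 the unstretched samples had 2.29, 1.19 and 1.79 CPM and the high-stretch samples 0.425, 0.355 and 0.234 CPM. Every stretched sample lay below every unstretched sample of its experiment. The log2 differences were -2.22 ± 0.16 (SE; adjusted p = 0.000387, a 4.67-fold lower level) under low stretch and -2.35 ± 0.36 (SE; adjusted p = 0.0153, 5.11-fold lower) under high stretch. Within the runs of neighbouring codes they were -1.81, -2.32 and -2.51 in experiment 1 and -2.43, -1.74 and -2.93 in experiment 2. The low-stretch call was kept in 9 of 9 fits that each left out 1 sample, whereas the high-stretch call was lost without any 1 high-stretch sample or without unstretched replicate 1, with an adjusted p of up to 0.102.

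Of 4 cartilage markers tested, 1 fell under low stretch and 2 under high stretch, against 3.6% and 2.16% of all genes called lower. None rose, and the part of these markers in the Col11a1 result was not tested. In bulk samples, fewer cells of a type and less RNA per cell cannot be told apart. The summed level of the 7 cartilage markers was 23.6 to 48.8 CPM in unstretched and 20.2 to 35.0 CPM in low-stretch samples of experiment 1, and 52.0 to 70.0 CPM and 23.8 to 33.0 CPM in the unstretched and high-stretch samples of experiment 2; only the latter ranges were apart. The defining markers Acan, Matn1 and Hapln1 were under 0.1 CPM in every group, while Cnmd fell by 3.53 on the log2 scale under low stretch (adjusted p = 0.00628) and by 5.72 under high stretch (adjusted p = 0.00246), and Sox9 by 0.94 under high stretch (adjusted p = 0.0441). Comp had positive log2 differences, of 0.65 (adjusted p = 0.135; 0.0184 with the code runs as a block) and 0.70 (adjusted p = 0.457).

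The sequence just upstream of Col11a1 is shown because this chain fell in both experiments. It is the 250 bases before the annotated start, chr3:114030290-114030539 on the plus strand of GRCm38.p6, from RefSeq, with a GC content of 62.4%. Motifs searched on both strands were the TATA box (TATAAA), the CCAAT box (CCAAT), the GC box (GGGCGG), the core of a TEAD site (GGAATG), an AP-1 site (TGANTCA), a SMAD box (CAGAC) and the core of a SOX site (AACAAT). Capitals mark each match, here 2 GC boxes, 1 CCAAT box and 1 SMAD box, the last 2 on the opposite strand.
Col11a1: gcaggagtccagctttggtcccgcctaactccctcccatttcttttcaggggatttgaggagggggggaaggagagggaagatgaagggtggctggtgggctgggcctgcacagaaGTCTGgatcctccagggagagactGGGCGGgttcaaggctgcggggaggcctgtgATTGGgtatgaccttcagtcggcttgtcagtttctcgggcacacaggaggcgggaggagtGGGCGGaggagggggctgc
A match is a description of the letters. Of all 32851 RefSeq promoter windows of this length, 32.7% held the GC box, 33.8% the CCAAT box and 42.2% the SMAD box.

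Col11a2, the partner chain of Col11a1, had log2 differences of -0.41 (adjusted p = 0.354) and -0.10 (adjusted p = 0.947), and neither was called. The ratio of Col11a1 to Col11a2 in TPM was 2.18 to 3.34 in unstretched and 0.474 to 1.377 in low-stretch samples of experiment 1, and 0.670 to 1.07 in unstretched and 0.126 to 0.230 in high-stretch samples of experiment 2. The ranges did not overlap in either experiment. Col2a1, the chain of the main cartilage collagen, had 2.03, 1.22 and 1.68 CPM in unstretched samples and 0.858, 1.05 and 1.57 CPM (lowest, median, highest) under low stretch. In experiment 2 it had 3.45, 2.87 and 2.18 CPM unstretched and 1.42, 1.57 and 1.49 CPM under high stretch. The high-stretch samples lay below all unstretched samples, but the log2 differences of -0.57 (adjusted p = 0.171) and -0.90 ± 0.24 (SE; adjusted p = 0.0919) were not called; with the code runs as a block the adjusted p-values were 0.00817 and 0.0345.

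Col5a2 fell under low stretch. The unstretched samples had 485.2, 559.7 and 532.8 CPM, and the low-stretch samples 342.9, 367.8 and 440.6 CPM (lowest, median, highest), without overlap. The log2 difference was -0.46 ± 0.10 (SE; adjusted p = 0.0226), a 1.377-fold lower level. The call was lost without any 1 of the unstretched samples, with an adjusted p of up to 0.101. In experiment 2 the unstretched samples had 489.5, 418.1 and 546.8 CPM and the high-stretch samples 459.3, 396.1 and 527.2 CPM, which overlapped, with a log2 difference of -0.06 (adjusted p = 0.959).

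Col5a1, the other main chain of collagen V, was not called, with log2 differences of 0.16 (adjusted p = 0.461) and 0.34 (adjusted p = 0.478). Collagen V is usually built of more Col5a1 than Col5a2 products. Here the TPM ratio of Col5a2 to Col5a1 was 3.20 to 4.45 in unstretched and 2.05 to 3.07 in low-stretch samples, without overlap, and 1.81 to 3.09 and 1.48 to 2.05 in experiment 2, with overlap. Col5a1 shares exons with the antisense genes 2810430I11Rik and Gm13372, so its count is uncertain where the counting did not use strand.

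Col27a1, a fibrillar chain of growing cartilage, rose under high stretch. It had 0.902, 0.955 and 1.05 CPM in unstretched and 2.43, 1.81 and 3.34 CPM in high-stretch samples, without overlap. The log2 difference was 1.40 ± 0.28 (SE; adjusted p = 0.0389), a 2.63-fold higher level. The call was lost without high-stretch replicate 1 or 3 or unstretched replicate 1 or 2, with an adjusted p of up to 0.192. Under low stretch the unstretched samples had 1.71, 1.18 and 1.08 CPM and the stretched samples 1.375, 1.753 and 3.573 CPM (lowest, median, highest), which overlapped, with a log2 difference of 0.72 (adjusted p = 0.216; 0.0035 with the block, where it was called higher).

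The chains of the scar collagens I and III were near the lower end of detection. Col3a1 had 0.618, 0.296 and 0.211 CPM in unstretched and 0.0647, 0.0922 and 0.113 CPM in high-stretch samples, without overlap, and its log2 difference of -2.02 ± 0.47 (SE; adjusted p = 0.0618) was not called except with the block (adjusted p = 0.00151) and in 3 other alternatives. Under low stretch its log2 difference was -0.74 (adjusted p = 0.110). Col1a1 had 0.425, 0.481 and 0.550 CPM in unstretched and 0.862, 1.06 and 0.879 CPM in high-stretch samples, also without overlap, with a log2 difference of 0.95 ± 0.25 (SE; adjusted p = 0.0886; 0.0409 with the block). Under low stretch Col1a1 overlapped between the groups, with a log2 difference of 0.74 (adjusted p = 0.279; 0.0135 with the block, where it was called higher). Col1a2 was not called, at 0.57 (adjusted p = 0.302) and 0.20 (adjusted p = 0.888). Of the 10 fibrillar chains tested under low stretch, 2 fell and none rose, and of the 9 tested under high stretch, 1 rose and 1 fell, against the shares of 5.45% and 3.47% of all genes called. With the code runs as a block 5 fibrillar chains were called in each comparison, 2 of them higher, against 28.2% and 8.35% of all genes.

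Among the FACITs, Col19a1 fell under both amplitudes. Collagen XIX is a minor chain of basement membrane zones and muscle. It had 0.511, 0.347 and 0.641 CPM in unstretched samples of experiment 1 and 0.0511, 0.154 and 0.200 CPM (lowest, median, highest) under low stretch. In experiment 2 it had 0.335, 0.274 and 0.393 CPM unstretched and 0.0364, 0.0780 and 0.0847 CPM under high stretch, where 9, 11 and 21 counts were behind the values. No stretched sample reached the unstretched samples of its experiment. The log2 differences were -1.95 ± 0.38 (SE; adjusted p = 0.0183, 3.85-fold lower) and -2.33 ± 0.40 (SE; adjusted p = 0.0230, 5.04-fold lower). The low-stretch call was lost without unstretched replicate 1 or 3 (adjusted p of up to 0.102), and the high-stretch call without any 1 high-stretch sample or unstretched replicate 1 (adjusted p of up to 0.110).

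The abundant FACITs were not called. Col12a1, a chain known from tendons and tissues under load, had 267.7, 187.8 and 252.6 CPM in unstretched and 136.6, 202.4 and 246.0 CPM (lowest, median, highest) in low-stretch samples, with a log2 difference of -0.22 (adjusted p = 0.448). In experiment 2 it had 128.1, 101.7 and 186.4 CPM unstretched and 187.0, 109.1 and 167.0 CPM under high stretch, with a log2 difference of 0.17 (adjusted p = 0.901). Both pairs of groups overlapped. Col16a1, which is found near basement membranes, had log2 differences of -0.28 (adjusted p = 0.344) and -0.30 (adjusted p = 0.595). Its groups overlapped under low stretch, while all high-stretch samples lay below the unstretched samples of experiment 2. Col20a1 had 9.72, 8.07 and 13.9 CPM unstretched and 4.86, 5.78 and 10.6 CPM (lowest, median, highest) under low stretch, a log2 difference of -0.67 (adjusted p = 0.118; 0.000986 with the code runs as a block), and -0.41 (adjusted p = 0.575) under high stretch. It shares exons with BX649560.1 on the same strand, which makes its count uncertain. Of the 6 FACITs tested under low stretch, 1 fell, against 3.6% of all genes called lower. All 6 log2 differences were below zero, as were 10617 of the 21672 genes tested. Of the 5 FACITs tested under high stretch, 1 fell, against 2.16% of all genes called lower, and 3 were below zero.

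Collagen VI forms beaded microfilaments in nearly all connective tissue, and its usual unit joins the products of Col6a1, Col6a2 and Col6a3. Col6a3 rose under both amplitudes. It had 0.139, 0.124 and 0.0479 CPM in unstretched samples of experiment 1 and 0.207, 0.434 and 0.566 CPM (lowest, median, highest) under low stretch. In experiment 2 the unstretched samples had 0.110, 0.104 and 0.124 CPM and the high-stretch samples 0.7, 0.837 and 1.25 CPM. Every stretched sample lay above every unstretched sample, also across the experiments, although the values rest on 14 to 47 counts per unstretched sample and 66 to 311 per stretched sample.

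The log2 differences of Col6a3 were 1.99 ± 0.42 (SE; adjusted p = 0.0235, 3.98-fold higher) under low stretch and 3.05 ± 0.33 (SE; adjusted p = 0.00592, 8.26-fold higher) under high stretch. Within the code runs they were 1.97, 1.85 and 2.43, and 2.68, 3.01 and 3.34. The low-stretch call was lost without low-stretch replicate 4 or any 1 unstretched sample (adjusted p of up to 0.0993), and the high-stretch call without high-stretch replicate 3 (adjusted p = 0.0529). In TPM of protein-coding transcripts Col6a3 averaged 0.0219, 0.0715, 0.0112 and 0.109 in unstretched cells of experiment 1, low stretch, unstretched cells of experiment 2 and high stretch. With all of its transcripts the means were 0.0226, 0.202, 0.0965 and 0.271 TPM, so the size of the difference depended on which transcripts were summed. Summed mesangial and fibroblast markers were at 87.7 to 105.2 CPM in unstretched and 56.5 to 77.2 CPM in low-stretch samples, and at 123.0 to 163.7 CPM in unstretched and 101.6 to 127.0 CPM in high-stretch samples, the latter with overlap. Pdgfra, Thy1, Itga8 and Lum were under 0.1 CPM.

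The 250 bases before the start of Col6a3, chr1:90843972-90844221 on the minus strand of GRCm38.p6 (RefSeq), are shown because this chain rose most under both amplitudes. Capitals mark 2 SMAD boxes, both on the opposite strand, and no other motif searched was in this window; its GC content was 57.2%.
Col6a3: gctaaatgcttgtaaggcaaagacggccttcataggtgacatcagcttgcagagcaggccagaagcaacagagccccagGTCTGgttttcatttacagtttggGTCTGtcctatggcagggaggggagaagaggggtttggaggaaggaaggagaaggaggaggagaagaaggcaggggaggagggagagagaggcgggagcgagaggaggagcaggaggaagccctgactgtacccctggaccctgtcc

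Col6a1 and Col6a2 were not called. Col6a1 had 117.1, 89.7 and 52.4 CPM unstretched and 75.2, 106.1 and 137.0 CPM (lowest, median, highest) under low stretch, and 128.1, 159.4 and 128.8 CPM unstretched and 119.1, 197.2 and 231.3 CPM under high stretch. Its log2 differences were 0.28 (adjusted p = 0.5003) and 0.41 (adjusted p = 0.565), and those of Col6a2 were 0.31 (adjusted p = 0.224; 0.0344 with the block) and 0.28 (adjusted p = 0.805). The TPM ratio of Col6a1 to Col6a3 was 1715 to 2333 in unstretched and 480.0 to 831.5 in low-stretch samples, and 3511 to 4639 in unstretched and 380.2 to 675.6 in high-stretch samples. Col6a3 therefore remained the scarce chain of the trio in every sample. The chains Col6a4, Col6a5 and Col6a6, which can stand in for Col6a3, had too few counts to be tested.

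**Figure D3:**
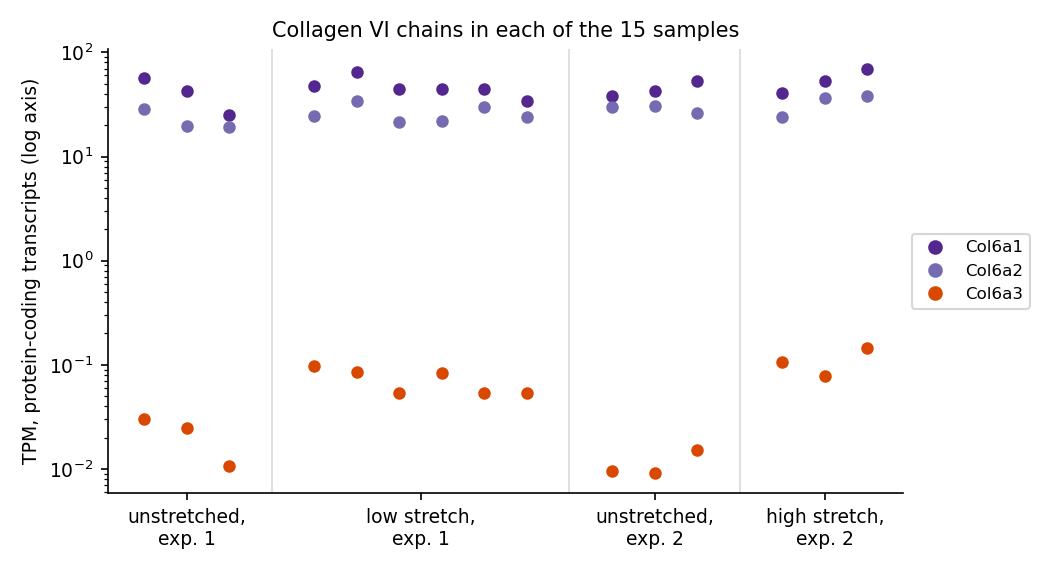
TPM of the protein-coding transcripts of Col6a1, Col6a2 and Col6a3 in each of the 15 samples, on a logarithmic axis. Col6a3 lies far below its partner chains everywhere and is higher in the stretched samples, while Col6a1 and Col6a2 overlap between the groups.

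No network-forming chain was called. Col8a1 had 569.2, 442.7 and 574.1 CPM unstretched and 389.0, 457.1 and 521.5 CPM (lowest, median, highest) under low stretch, and 209.1, 176.9 and 319.4 CPM unstretched and 250.8, 178.9 and 223.3 CPM under high stretch. The groups overlapped in both experiments, with log2 differences of -0.21 (adjusted p = 0.266) and -0.10 (adjusted p = 0.947). Col8a2, its partner chain, and Col10a1, the collagen of hypertrophic cartilage, stayed under 0.1 CPM in every sample; Col10a1 shares exons with Nt5dc1 on the opposite strand.

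Among the transmembrane chains, Col23a1 fell under low stretch. It had 0.295, 0.269 and 0.217 CPM unstretched and 0.102, 0.128 and 0.201 CPM (lowest, median, highest) under low stretch, without overlap, a log2 difference of -0.95 ± 0.23 (SE; adjusted p = 0.0381, 1.93-fold lower). The call was lost in 7 of 9 fits that each left out 1 sample, namely any 1 unstretched sample or low-stretch replicate 1, 2, 4 or 6 (adjusted p of up to 0.157). In experiment 2 it had 0.387, 0.518 and 0.404 CPM unstretched and 0.166, 0.305 and 0.202 CPM under high stretch, without overlap, and its log2 difference of -0.96 ± 0.32 (SE; adjusted p = 0.199) was not called. Col17a1, the hemidesmosomal collagen, had 0.0902, 0.0667 and 0.0619 CPM unstretched and 0.150, 0.248 and 0.153 CPM under high stretch, with a log2 difference of 1.34 ± 0.38 (SE; adjusted p = 0.116).

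Collagen XVIII, a multiplexin, carries heparan sulphate and releases the fragment endostatin from its end. Its chain Col18a1 had 1269, 1306 and 1629 CPM unstretched and 660.1, 870.3 and 1108 CPM (lowest, median, highest) under low stretch. In experiment 2 it had 3372, 3367 and 2410 CPM unstretched and 1186, 1817 and 1757 CPM under high stretch. The groups did not overlap in either experiment, and the lowest unstretched value of experiment 2 belonged to the sample that stood apart. The fall passed the test under low stretch, with a log2 difference of -0.64 ± 0.15 (SE; adjusted p = 0.0339, 1.56-fold lower), and the value under high stretch was -0.93 ± 0.23 (SE; adjusted p = 0.0749; 0.0147 with the block). The low-stretch call was lost without low-stretch replicate 2, 3 or 4 or any 1 unstretched sample (adjusted p of up to 0.184). Col15a1, the other multiplexin, stayed under 0.1 CPM in every sample.

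Col18a1 is known to be transcribed from separate start sites that give a short and a longer protein, and both RefSeq windows are shown because the transcripts could be assigned to them. Transcripts from site 1, the upstream one at chr10:77166531-77166780 on the minus strand of GRCm38.p6, made up 98.2 ± 0.353% (SD, n = 3) and 97.4 ± 1.17% (SD, n = 6) of the gene's TPM in unstretched and low-stretch samples of experiment 1. In experiment 2 they made up 98.1 ± 0.195% (SD, n = 3) and 96.8 ± 0.615% (SD, n = 3). Transcripts from site 2, at chr10:77113706-77113955, had 0.0967%, 0.111%, 0.0652% and 0.137% in the same groups. The level of the gene thus lay almost wholly in transcripts from site 1 in stretched and unstretched samples alike. Capitals mark 3 GC boxes and 1 CCAAT box in site 1, and 2 TEAD cores and 1 SMAD box in site 2.
Col18a1 site 1: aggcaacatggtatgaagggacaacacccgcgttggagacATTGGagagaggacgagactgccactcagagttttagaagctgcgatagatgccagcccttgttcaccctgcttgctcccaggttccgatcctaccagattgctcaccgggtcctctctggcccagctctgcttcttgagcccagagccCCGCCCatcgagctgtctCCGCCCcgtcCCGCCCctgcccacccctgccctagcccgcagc
Col18a1 site 2: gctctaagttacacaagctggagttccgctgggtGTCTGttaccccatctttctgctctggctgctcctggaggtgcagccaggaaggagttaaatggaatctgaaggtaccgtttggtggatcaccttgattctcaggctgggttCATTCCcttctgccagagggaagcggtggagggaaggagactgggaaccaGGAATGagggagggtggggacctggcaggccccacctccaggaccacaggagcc
The TEAD core was in 12.6% of all windows and the GC box in 32.7%.

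Col7a1, the chain of the anchoring fibrils that fasten the epidermis to the dermis, rose under high stretch. It had 2.00, 2.81 and 2.06 CPM unstretched and 8.17, 6.75 and 7.24 CPM under high stretch, without overlap. The log2 difference was 1.71 ± 0.24 (SE; adjusted p = 0.0116), a 3.27-fold higher level; the call was lost without high-stretch replicate 1 or 3 or unstretched replicate 1, with an adjusted p of up to 0.0791. Under low stretch the unstretched samples had 2.90, 4.20 and 2.87 CPM and the stretched samples 3.27, 5.08 and 6.59 CPM (lowest, median, highest), which overlapped, with a log2 difference of 0.61 ± 0.22 (SE; adjusted p = 0.135; 0.0119 with the block).

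Much of the Col7a1 TPM was in a retained-intron transcript. Col7a1-208, of 525 bases, held 48.6 ± 14.1% (SD, n = 3) of the gene's TPM in unstretched and 79.0 ± 1.92% (SD, n = 3) in high-stretch samples, while the protein-coding transcripts summed to 0.252 and 0.728 TPM. The groups did not overlap, but the usage test of this transcript did not pass (limma on log2 ratios, adjusted p = 0.304). The 250 bases before the Col7a1 start, chr9:108953336-108953585 on the plus strand of GRCm38.p6 (RefSeq), are shown because the chain rose under high stretch. They have a GC content of 56.4%, and capitals mark 1 CCAAT box, 1 SMAD box and 1 GC box.
Col7a1: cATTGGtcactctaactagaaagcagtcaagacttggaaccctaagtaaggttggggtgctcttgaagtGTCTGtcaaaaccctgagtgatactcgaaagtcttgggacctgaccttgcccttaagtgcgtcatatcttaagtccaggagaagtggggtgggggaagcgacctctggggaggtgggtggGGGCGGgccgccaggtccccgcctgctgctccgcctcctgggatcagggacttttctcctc

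RefSeq had promoter windows for 30 of the 38 collagens, with 33 start sites. The GC box was in 57.6% of these windows against 32.7% of all 32851, the CCAAT box in 30.3% against 33.8%, the SMAD box in 48.5% against 42.2%, and the TATA box in 15.2% against 12.4%. The median GC content was 58.8% against 52.4%. The TEAD core was in 12.1% against 12.6%, the AP-1 site in 3.03% against 6.75% and the SOX core in 3.03% against 9.42%. These shares describe the windows, and no factor's binding was measured.

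**Figure D4:**
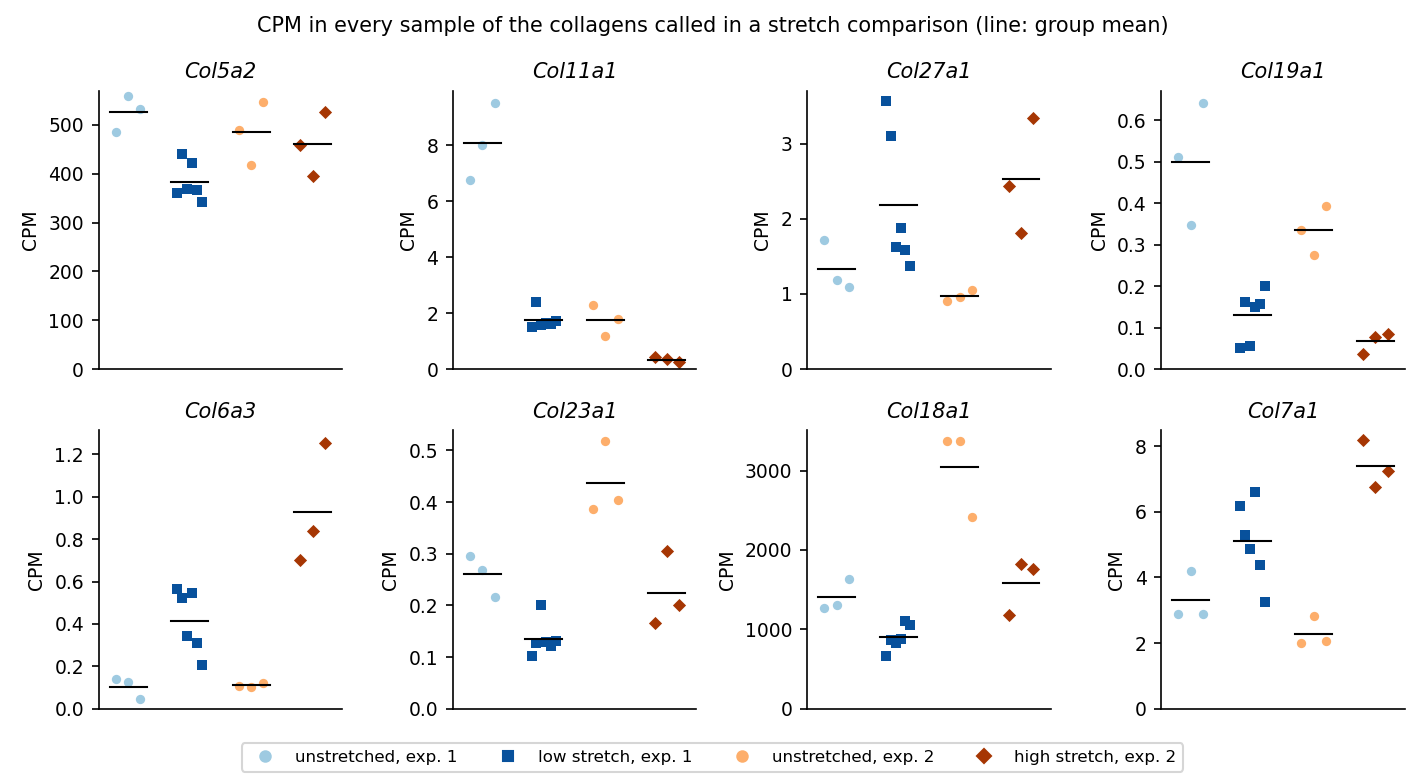
CPM in each sample of the 8 collagens called in a stretch comparison, with a line at each group's mean. Col6a3 is higher and Col11a1 and Col19a1 lower in every stretched sample than in the unstretched samples of the same experiment, and unstretched Col11a1 is lower in experiment 2 than in experiment 1.

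Of the 8 chains called under either amplitude, Col6a3, Col11a1 and Col19a1 were called under both. The difference between the high-stretch and low-stretch effects was tested as a contrast over all 15 samples. None of the 27 chains tested passed, against 0.0% of 22015 genes (0.0136% with the code runs as a block), and by DESeq2 none passed either; 2 chains and 547 genes had an unadjusted p under 0.05. Col7a1 had the lowest p, with an effect that was 1.07 ± 0.32 (SE) larger on the log2 scale under high stretch (95% interval 0.45 to 1.70, adjusted p = 1.0 by edgeR). For Col6a3 the difference of the effects was 1.03 ± 0.55 (SE), with an interval from -0.05 to 2.12, and for Col11a1 it was -0.16, with an interval from -0.85 to 0.53. For Col5a2 the interval was 0.01 to 0.76, although its unadjusted p by edgeR was 0.0634. The intervals were set from the standard error with a normal quantile, not from edgeR's F test. They are therefore approximate, and that of Col5a2 was narrower than its p-value allows, so an interval without zero is not a call. A stronger or a distinct effect of either amplitude was thus not shown for any collagen.

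The unstretched samples of the experiments differed from each other in 11 of the 27 collagens tested, 6 higher and 5 lower in experiment 2, against 62.5% of all 20707 genes tested (29.7% higher and 32.7% lower). Col18a1 was higher by 1.11 on the log2 scale (adjusted p = 0.00545) and Col3a1 by 1.34 (adjusted p = 0.0262). Col11a1 was lower, at -2.22 ± 0.29 (SE; adjusted p = 0.00533), as were Col8a1 at -1.19 (adjusted p = 0.00585), Col9a3 at -1.25 (adjusted p = 0.0104), Col12a1 at -0.78 (adjusted p = 0.0263) and Col14a1 at -1.61 (adjusted p = 0.0297). The difference in Col11a1 between the unstretched groups was as large as its difference under low stretch. Col5a1, Col16a1, Col6a2 and Col2a1 were also called higher in CPM. In TPM, Col5a1 averaged 39.3 and 40.8 and Col16a1 30.6 and 30.9, so the rise of Col5a1 and Col16a1 depended on the scale. Col6a2 averaged 22.4 and 28.9 TPM and Col2a1 0.606 and 0.708 TPM. Col6a3 was not called between the unstretched groups (log2 difference 0.11, adjusted p = 0.844). The share called among the collagens was below that of all genes, and the groups did not overlap in 17 of 27 against 72.9% of all genes (35.2% above and 37.7% below).

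Transcript usage, the share of each transcript in its gene's TPM, was tested for 22 transcripts of 8 collagens under low stretch and 13 transcripts of 5 collagens under high stretch. None passed with limma at an adjusted p under 0.05, and 6 in each comparison had an unadjusted p under 0.05, against 10% and 8.04% of all transcripts tested; adjusted calls took 0.0144% and 0.0% of all transcripts. Under low stretch the lowest adjusted p (0.267) belonged to Col16a1-202, a non-coding transcript with 11.7 ± 1.10% (SD, n = 6) of the gene's TPM in stretched and 15.8 ± 1.39% (SD, n = 3) in unstretched samples. Col16a1-201 held 23.2% under low stretch against 16.9% (adjusted p = 0.386), and 23.1% under high stretch against 15.3% (adjusted p = 0.309). Col6a2-202, whose start lies nearest the downstream of the 2 Col6a2 sites, held 12% against 15.1% under low stretch (adjusted p = 0.380). Col26a1 had a mean of 1.47 TPM in unstretched cells of experiment 1, all of it in retained-intron transcripts, while its gene counts were 0 to 3 in every sample.

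The genes that make, trim, crosslink and bind collagens were taken as a list of 55, of which 46 were tested in each comparison; 2 rose and 4 fell under each amplitude, where 1.85% and 1.31% of all genes were called higher and 3.6% and 2.16% lower. With the code runs as a block, 25 were called under low stretch (12 higher) and 11 under high stretch (6 higher), against 28.2% and 8.35% of all genes. The list's median log2 difference was -0.08 under low stretch and -0.06 under high stretch. Loxl2, a lysyl oxidase that crosslinks collagens including those of basement membranes, rose under both. It had 41.4, 28.0 and 35.8 CPM unstretched and 48.0, 63.0 and 91.0 CPM (lowest, median, highest) under low stretch, a log2 difference of 0.91 ± 0.19 (SE; adjusted p = 0.0230). In experiment 2 it had 60.3, 73.4 and 49.0 CPM unstretched and 108.1, 135.8 and 134.1 CPM under high stretch, a log2 difference of 1.07 ± 0.20 (SE; adjusted p = 0.0277). All stretched samples lay above all unstretched samples of their experiment.

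Loxl4, another enzyme of this family, fell by 1.26 on the log2 scale under low stretch (adjusted p = 0.0419) and by 2.09 under high stretch (adjusted p = 0.0155). Lox, the classical enzyme of fibril crosslinking, was not called, at 0.71 (adjusted p = 0.0690) and 1.11 (adjusted p = 0.0563). Among the propeptide-removal genes, Bmp1, the proteinase that trims the ends of fibrillar collagens, rose under low stretch (0.62, adjusted p = 0.0374; high stretch 0.52, adjusted p = 0.282), and Pcolce2, its enhancer, rose under high stretch (2.33, adjusted p = 0.0142; low stretch 1.16, adjusted p = 0.284).

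P3h2, a prolyl 3-hydroxylase known to act on basement membrane collagen, fell under low stretch (-0.68, adjusted p = 0.0210) and under high stretch (-1.32, adjusted p = 0.0457), and its relative P3h1 fell under low stretch (-0.35, adjusted p = 0.0317; high stretch -0.57, adjusted p = 0.280). P4ha1, a catalytic subunit of the prolyl 4-hydroxylase, and Serpinh1, the collagen chaperone HSP47, were not called under either amplitude, and none of the 9 chaperone and secretion genes was. Of the collagen receptors, Ddr2, a receptor kinase for fibrillar collagens, fell under both amplitudes (-1.26, adjusted p = 0.00574, and -1.45, adjusted p = 0.0346). Itga1, the α subunit of a collagen-binding integrin, fell under high stretch (-1.88, adjusted p = 0.0266; low stretch -1.10, adjusted p = 0.0874).

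**Figure D5:**
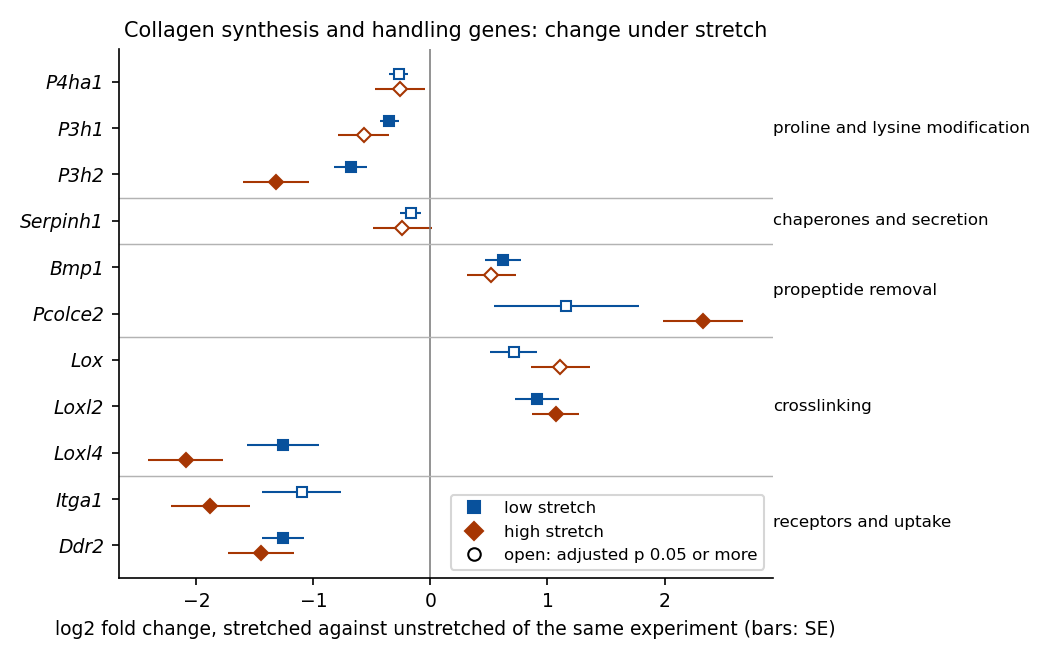
Log2 difference between stretched and unstretched samples, with standard errors, for 11 genes of collagen modification, trimming, crosslinking and binding; filled symbols have an adjusted p under 0.05. Loxl2 is on the positive side and Loxl4, P3h2 and Ddr2 on the negative side in both comparisons.

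The 6 type IV chains, which podocytes make for the glomerular basement membrane, gave log2 differences from -0.67 to 1.00 under low stretch and from -0.79 to 2.88 under high stretch, with 1 rise and 1 fall called in each, against 5.45% and 3.47% of all genes called. With the code runs as a block, 5 of the 6 were called under low stretch and 3 under high stretch, with 1 higher in each, against 28.2% and 8.35% of all genes. Their summed TPM was 1695 ± 244.2 (SD, n = 3) without and 1127 ± 217.9 (SD, n = 6) with low stretch in experiment 1, and 1879 ± 224.1 (SD, n = 3) without and 1141 ± 88.6 (SD, n = 3) with high stretch in experiment 2. The sums of the type IV and of the other collagens were thus both lower in the stretched groups, and no test compared these sums.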

How the data were processed

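Stranded paired-end libraries were made from poly(A) RNA of 15 samples, per the labels' protocols. Raw gene counts were deposited by the authors, and the transcript table holds TPM values deposited by the authors, which carry no depth. The submitters' processing notes name STAR 2.7.5c, featureCounts, Subread 2.0.0, DESeq2 1.38.3, Salmon 1.9.0 and the build mm39; their order, the annotation, the strand setting and whether read pairs were counted once are not given in the sources used here. Symbols came from GENCODE M21, which matched 52083 of 55416 genes and 137189 of 140789 transcripts, the latter with at least 99.12% of the TPM of a sample; it is of another build, so only RefSeq's own promoter coordinates are printed.

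Groups came from the sample titles. The gene test was that of edgeR 4.0.16, run in R 4.3.3 (TMM, filterByExpr, quasi-likelihood F test, Benjamini-Hochberg adjustment over all genes tested, threshold 0.05), each stretched group with the unstretched samples of its experiment; the difference of the effects used all 15 samples. Usage was tested with limma 3.58.1 on log2 ratios, a transcript's TPM over that of all others of the gene with 0.1 added to each, in genes with a mean of at least 1 TPM and for transcripts with a mean fraction from 0.05 to 0.95. In simulated data, 200 genes drawn from those with a mean of at least 1 CPM were given a log2 change of 2. Of these, edgeR recovered 99.5% among 21406 genes for low stretch and 96% among 18272 for high stretch, with 14 and 10 false calls. Changes at lower levels, where Col6a3, Col19a1 and Col23a1 lie, were not simulated. The usage test recovered 93% of 200 changed transcripts among 27720 and 66.5% among 23408.

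All 38 collagens may be named. Those with at least 1 TPM in some group or with a call are described by sample values, a range or their log2 differences. Of the handling list, the called genes and Serpinh1, P4ha1, Lox and Bmp1 are named. The members and lists were chosen with earlier results of these data known. Replicate numbers were not used as pairs in the main fits. Deviations of same-numbered samples correlated by -0.44 to 0.365 in experiment 1 and by -0.163 to 0.45 in experiment 2. In experiment 2 replicate number and code run are the same. Samples of 1 code run correlated by 0.328 to 0.57 in experiment 1, against -0.52 to -0.0521 for samples of different runs. The main fits held no term for the runs. Alternatives were DESeq2 1.42.0, size factors by RLE, a stricter filter (mean count of at least 100) or none, one fit of all 15 samples, blocks on code run or replicate number, pseudocounts of 0.01 and 1 TPM, and each sample left out in turn. The block on replicate number left out low-stretch replicates 4 to 6, which have no unstretched sample of the same number. Singling out the sample that stood apart was chosen after seeing the data. No sample pair held identical values.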

Additional observations from a re-analysis of the deposited data

Results flagged for a closer look

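In each of the 27 collagens tested, the 6 low-stretch samples were searched for a value far from the others, by a ratio of its gap to the range of the group above 0.625, which chance gives in about 1 in 20 groups. Col11a1 had 2.38 CPM in low-stretch replicate 2, against 1.49 to 1.71 CPM in the other low-stretch samples (ratio 0.75). Col23a1 had 0.201 CPM in low-stretch replicate 3, against 0.102 to 0.132 CPM in the others (ratio 0.70). Both values stayed below all 3 unstretched samples, and both chains had the same direction in every fit that left out 1 sample of the low-stretch comparison.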

How the results depend on the processing

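Under low stretch, where 6 collagens were called, DESeq2 and RLE size factors gave 6, no filter 5, a mean count of at least 100 and all 15 samples in one fit 4 each, the code-run block 12 and the replicate block 3. The replicate block left out low-stretch replicates 4 to 6, so pairing and sample number changed together. Under high stretch, where 5 were called, DESeq2 gave 9, all 15 samples in one fit 8, no filter 7, RLE size factors 5, a mean count of at least 100 gave 4, and the code-run block and the replicate block, which are the same here, gave 9; the cause was not tested. Leaving out 1 sample gave 1 to 7 calls under low stretch, 0 to 9 under high stretch, 0 for the difference of the effects, 4 to 13 between the unstretched groups (11 with all samples) and 0 for usage in either comparison. For usage under low stretch, no filter and a pseudocount of 1 TPM each called 2 transcripts, all of Col11a1. The pairing by replicate number moved no count between the unstretched groups by over 1.5 times (12 calls). Over all genes, low stretch gave 1181 calls, against 2837 by DESeq2, 640 in one fit, 6106 with the code-run block and 490 with the replicate block; high stretch gave 643, against 1403, 1488, 1546 and 1546, 414 with the stricter filter and 1050 without one. Leaving out 1 sample gave 220 to 1630 and 14 to 1421 calls. Usage gave 4 calls over all transcripts under low stretch (0 to 91 over the alternatives) and 0 under high stretch (0 to 7). The difference of the effects gave 0, and 3 with the code-run block. Apart from the fits that left out 1 sample in turn, Col6a3 was called in 7 of 7 other settings under each amplitude, as was Col11a1. Col19a1 was called under low stretch in 5 of 6. It lost the call with the replicate block, which held fewer low-stretch samples (adjusted p = 0.0632 by edgeR), and had too few counts for the stricter filter.

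Signs turned only in small values. The difference of the effects on Col19a1 was 0.19 with the replicate block, which left out low-stretch replicates 4 to 6. With 1 sample left out, log2 differences reached 0.00 for Col8a2 (from -0.87) and -0.02 for Col24a1 (up to 0.67) under low stretch. Under high stretch they ranged from -0.01 to 0.48 for Col12a1, -0.14 to 0.08 for Col5a2, -0.25 to 0.23 for Col8a1, -0.30 to 0.17 for Col11a2 and -0.13 to 0.09 for Col15a1. For the difference of the effects they ranged from -0.30 to 0.14 for Col23a1 and -0.38 to 0.07 for Col11a1, and between the unstretched groups from -0.24 to 0.37 for Col6a3. Depth limits the collagens under 0.1 CPM, of which 11 and 14 could not be tested.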
